A study of Mus musculus with 6 samples.

Results

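The 10 genes described here carry antigen presentation by MHC class I in the mouse: the heavy chains H2-K1 and H2-D1, the light chain B2m, the peptide transporter genes Tap1 and Tap2, the loading factor Tapbp, the immunoproteasome subunits Psmb8, Psmb9 and Psmb10, and the transactivator Nlrc5. They were chosen by name as members of this pathway, with no measured value in the rule, and all 10 were among the 15415 genes listed and the 9030 tested. RNA had been sequenced from peritoneal macrophages (PEMs) in 6 libraries to ask how loss of the receptor Tim-4 goes with gene expression. Of these, 3 were titled PEM-CKO and 3 PEM-Control. The PEM-CKO animals were LysM-Cre; Tim-4 fl/fl. Their Cre is made from the Lyz2 gene in myeloid cells and removes floxed Timd4, the gene of Tim-4. The PEM-Control animals were Tim-4 fl/fl and carried no Cre. The mice were male C57BL/6J animals of 6 to 8 weeks, and PEMs were collected 3 days after 6% starch had been injected into the peritoneum. LPS is the labelled treatment of all 6 libraries, so no untreated library was compared. The methods give 1 μg/ml for 3.5 hours for PEMs in general, without saying that the sequenced cells were treated so. Grouping followed the titles, because the labelled genotypes are swapped relative to them.

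Class I molecules show peptides from inside the cell to CD8 T cells. Proteasomes cut the peptides, and after interferon the immunosubunits Psmb8, Psmb9 and Psmb10 replace the catalytic subunits Psmb5, Psmb6 and Psmb7. TAP, built from Tap1 and Tap2, carries the peptides into the endoplasmic reticulum, where tapasin (Tapbp) helps to load them onto a heavy chain paired with B2m. Nlrc5 joins the RFX, NF-Y and CREB/ATF factors on class I promoters, and interferons act on these genes through factors such as Stat2 and Irf1. Macrophages make class I molecules at all times and more of them after activation.

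Before the values of these genes, the libraries themselves need a description. Timd4 was at 0.333, 0.394 and 0.246 FPKM (reads scaled by gene length and by the reads of the library) in PEM-CKO 1, 2 and 3, and at 19.5, 12.1 and 1.19 in PEM-Control 1, 2 and 3, so the titles fit the targeted gene and PEM-Control 3 was its lowest control (limma, adjusted p = 0.0715, and 0.0436 with the replicate number as a block). Lyz2 was at 41.4, 4656 and 106 FPKM in PEM-CKO and at 7090 to 8482 in PEM-Control, which sets PEM-CKO 2 apart from the other knockout libraries. Markers of macrophages (Adgre1, Csf1r, Cd68, Itgam and Mertk) summed to 2244 to 2434 FPKM in PEM-CKO and 1634 to 2175 in PEM-Control, and 0 of the 5 passed the test. These sums were mostly Cd68, which was higher in every knockout library (log2 fold change 0.62). Csf1r was lower in every knockout library (-0.71). Adgre1 (-0.24) and Itgam (-0.26) also lay below 0, and Mertk (1.07) lay above it. Other cell types moved with the groups. All 5 B cell markers were lower in PEM-CKO (summed level 2.78 to 5.52 against 27.5 to 115 FPKM), as were all 5 mast cell markers (1.89 to 2.25 against 37.5 to 48.96 FPKM) and Prg4 and Icam2 among 5 markers of large peritoneal macrophages (3.54 to 7.33 against 33.0 to 124 FPKM). Irf4 and Plac8 fell among 5 small peritoneal macrophage and monocyte markers (8.26 to 53.7 against 34.6 to 39.1 FPKM), and S100a8 among 4 listed neutrophil markers (41.6 to 72.9 against 160 to 174 FPKM). Of the T and NK cell markers (0.774 to 1.43 against 0.893 to 2.92 FPKM in sum) and the dendritic cell markers (2.66 to 6.37 against 7.72 to 11.3 FPKM), Lck and Ccr7 alone were high enough to be tested, and neither passed. Cd3e, below the filter, was at 0 to 0.0161 against 0.0729 to 0.468 FPKM. Of 6 mesothelial and fibroblast markers (11.2 to 29.3 against 2.06 to 11.8 FPKM) 3 were tested and 0 passed. With that block Kit, a mast cell marker, did not pass (adjusted p = 0.0538), while the neutrophil marker Retnlg (0.0437) and the fibroblast markers Col1a1 (0.0442) and Col1a2 (0.0277) did. The part of these cells in the results on class I genes was not tested, and fewer cells of a type cannot be told apart from less RNA per cell in such bulk samples.

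Promoter sequences are shown first, since 3 members, H2-K1, H2-D1 and B2m, share a layout there that the choice of genes did not use. RefSeq promoters (GRCm38.p6, from 250 bases before to 49 after the start site) were at hand for 8 of the 10 members, and not for Tap2 and Nlrc5. H2-K1, H2-D1 and B2m each held a CRE-like core (TGACG), to which CREB and ATF factors bind, followed by an inverted CCAAT box (ATTGG), the site of NF-Y, with the first bases of the 2 motifs exactly 25 bases apart. The stretches below are aligned on that core and run 5' to 3' on the strand of the gene, ending upstream of every RefSeq start site of the gene (H2-K1 has 2). Capitals mark the CRE core, the CCAAT box in either orientation and, in B2m, an interferon-stimulated response element (ISRE).
H2-K1 (chr17:34000349-34000453, minus strand): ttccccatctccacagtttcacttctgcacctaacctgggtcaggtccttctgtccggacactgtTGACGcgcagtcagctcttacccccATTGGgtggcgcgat
H2-D1 (chr17:35262928-35263032, plus strand): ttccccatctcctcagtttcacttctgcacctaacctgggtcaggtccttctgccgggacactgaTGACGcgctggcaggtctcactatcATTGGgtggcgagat
B2m (chr2:122147544-122147648, plus strand): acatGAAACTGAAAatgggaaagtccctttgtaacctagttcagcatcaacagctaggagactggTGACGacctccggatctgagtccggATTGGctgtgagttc
Between H2-K1 and H2-D1, 93 of the 105 aligned bases were the same (88.6%), against 44 (41.9%) between H2-K1 and B2m and 43 (41.0%) between H2-D1 and B2m. This spacing on the strand of the gene was seen in 19 of 32851 promoter windows of the genome (0.0578%), from 16 genes that also include the class I-like H2-M3. The distance was read off these 3 members and then counted in all promoters, so it is a description.

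Tap1 and Psmb9 are neighbours read in opposite directions, with 225 bases between their start sites. The sequence that both genes share as their upstream region is given whole, with capitals for the CCAAT box and the CRE core.
Tap1 and Psmb9 (chr17:34187331-34187555, plus strand, in the direction of Tap1): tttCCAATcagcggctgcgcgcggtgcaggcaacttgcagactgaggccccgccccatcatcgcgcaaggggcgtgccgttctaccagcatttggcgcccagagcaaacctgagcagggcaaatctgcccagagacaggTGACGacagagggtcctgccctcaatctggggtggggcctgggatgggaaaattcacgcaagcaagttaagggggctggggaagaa
Over the 8 members with a promoter, a CCAAT box on either strand was found in 6 (37.4% of all promoters hold one) and a CRE core in 5 (20.8% of all promoters). The matches of Tap1 and Psmb9 are the same sites in their shared region, counted for both. The stretches of H2-K1 and H2-D1 were 88.6% the same. These promoters are therefore not independent, and the counts are not a measure of enrichment. The ISRE, searched as GAAANNGAAA, was found in 1 member, B2m (3.44% of all promoters), and the gamma-activated site, searched as TTCNNNGAA, in 1 member, Psmb8 (8.3%). Such fixed letters miss sites that differ in a base or in spacing. A promoter without a match, such as that of H2-K1 or H2-D1, may still hold an interferon response element. An NF-κB site, searched as GGGNNNNNCC, was found in 5 members, H2-K1, H2-D1, B2m, Tap1 and Psmb9, and in 50.8% of all promoters, so that short pattern sets nothing apart. Psmb10 held no match to any of these letters, and Tapbp held CCAAT boxes alone.

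**Figure D1:**
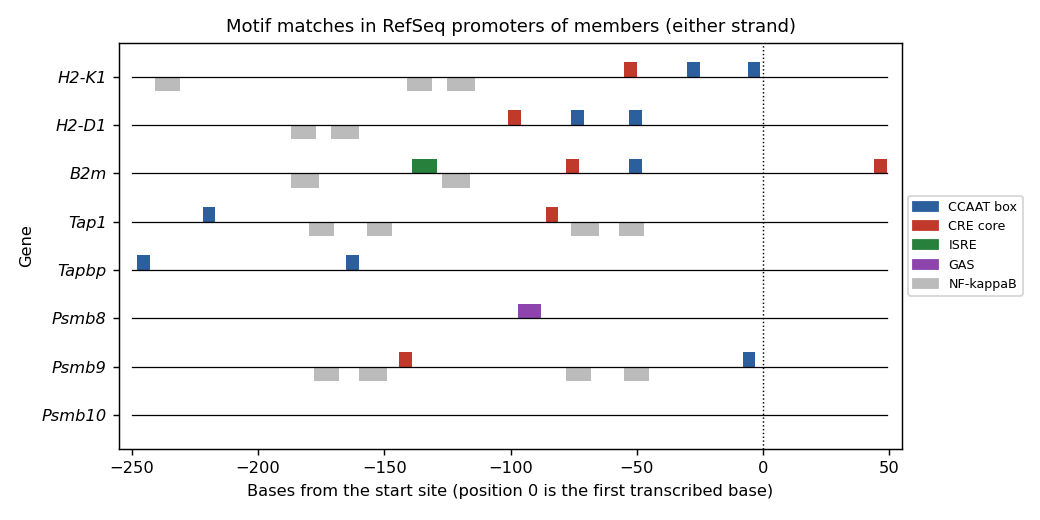
Matches to 5 motifs on either strand along the promoters of 8 members, plotted by distance in bases from the start site (first window of each gene, NF-κB matches below the line and the others above it). In H2-K1, H2-D1 and B2m a CRE core is followed by a CCAAT box at the same distance of 25 bases, while Psmb8 has a gamma-activated site alone and Psmb10 has no match.

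The class I genes ranged from abundant to moderate in every library. B2m was the most abundant member (2402 to 4219 FPKM over the 6 libraries, median 3615), followed by H2-D1 (1098 to 1793, median 1572) and H2-K1 (400.3 to 803, median 616), and the range of B2m lay apart from that of H2-D1, which lay apart from that of H2-K1. Tapbp came next (272 to 451 FPKM), below H2-K1 in all 6 libraries although their ranges overlapped, and its range lay above that of every later member. Psmb8 (69.1 to 172 FPKM), Tap1 (47.7 to 164), Psmb10 (48.0 to 122), Tap2 (32.9 to 76.0), Nlrc5 (20.03 to 59.0) and Psmb9 (15.2 to 47.4) followed, each overlapping in range with the next. Psmb8 was above Tap1 in 5 of 6 libraries and Nlrc5 above Psmb9 in 3 of 6, so neighbours in this order did not all differ beyond their spread. Each member rested on at least 610 and at most 147947 reads in a library.

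**Figure D2:**
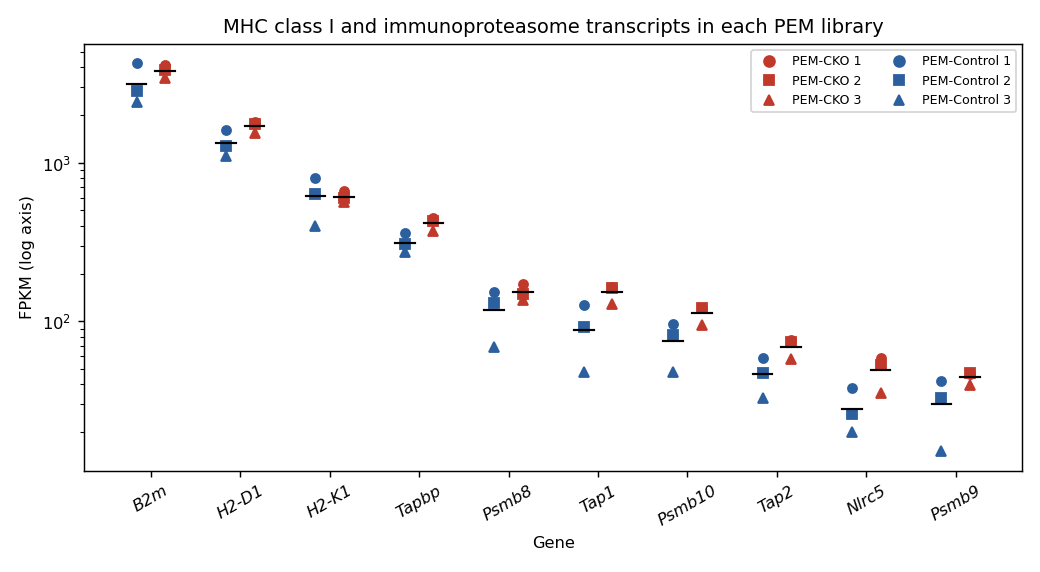
FPKM on a log axis of the 10 members in each of the 6 libraries, in order of their mean, with the 3 PEM-Control libraries on the left and the 3 PEM-CKO libraries on the right of each gene and a black line at the group mean. PEM-Control 3 (blue triangles) is the lowest library for all 10 members, and Tap1 and Tapbp are the 2 whose groups lie apart.

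No member passed the test between the groups, although all 10 fold changes had the same sign in the full fit. With limma on log2(FPKM + 1) and Benjamini-Hochberg adjustment over all tested genes, 0 of the 10 members had an adjusted p under 0.05 (0.116 to 0.928), where 7.31% of all tested genes did in either direction and 2.57% did as higher in PEM-CKO. The log2 fold change, PEM-CKO minus PEM-Control, was above 0 for all 10 (0.04 to 0.88, median 0.52), while it was above 0 for 36.5% of all tested genes and their median was -0.11. By mean FPKM 9 of 10 members were higher in PEM-CKO (35.1% of all tested genes), the exception being H2-K1, and 9 of 10 fold changes were above 0 without PEM-CKO 1 or without PEM-Control 3. At an unadjusted p under 0.05, 4 members were higher in PEM-CKO (Nlrc5, Tap1, Tap2 and Tapbp), where 9.93% of all tested genes were, and 0 members were without PEM-CKO 1, without PEM-CKO 2 or without PEM-Control 2, with 1 without PEM-Control 3 and 9 without PEM-Control 1. With the replicate number as a block 7 members were below that unadjusted level, H2-D1, Psmb9 and Psmb10 joining these 4, where 11.2% of all tested genes were. Within every replicate number PEM-CKO lay above PEM-Control for 8 of 10 members, all but H2-K1 and B2m, and for 18% of all tested genes. Every PEM-CKO library lay above every PEM-Control library for 2 of 10 members, Tap1 and Tapbp, against 11.1% of all tested genes. Rescaling the libraries by the median of ratios moved the median of all genes to 0.01 and that of the members to 0.67 (0.19 to 1.02), and again 0 of 10 passed, as with voom on recovered reads. The median of the members was 0.29 without PEM-Control 3 and 0.25 without both PEM-CKO 2 and PEM-Control 3. Nothing in the labels says that the libraries of a group came from separate mice, so the p-values measure the spread between these libraries, which may be technical.

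Nlrc5, the transactivator of class I genes, had the lowest p of the members. It was at 59.0, 52.9 and 35.5 FPKM in PEM-CKO 1, 2 and 3 and at 38.2, 26.1 and 20.03 FPKM in PEM-Control 1, 2 and 3. The groups overlapped in that PEM-CKO 3 lay below PEM-Control 1. The means were 49.1 ± 12.2 and 28.1 ± 9.22 FPKM (SD, n = 3 each), and the log2 fold change was 0.80 (SE 0.27, 95% interval 0.16 to 1.45, limma, adjusted p = 0.116). With the replicate number as a block, so that libraries of the same number are compared with each other, Nlrc5 passed the threshold (limma, adjusted p = 0.0290), the 1 member to do so in any fit, where 3.9% of all tested genes were called as higher. Its adjusted p ranged from 0.0290 to 0.373 over the alternatives, with a log2 fold change of 0.52 to 1.04.

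The class I chains themselves lay close to 0 or overlapped between the groups, and none passed. H2-K1 was at 661, 596 and 567 FPKM in PEM-CKO 1, 2 and 3 and at 803, 637 and 400.3 FPKM in the controls, which spanned the whole knockout range (log2 fold change 0.04, SE 0.25, 95% interval -0.54 to 0.63, limma, adjusted p = 0.928). Its sign rested on single libraries, at -0.24 without PEM-Control 3 and -0.02 without PEM-CKO 1, and its mean FPKM was 608 in PEM-CKO and 613 in PEM-Control. H2-D1, the other heavy chain, was at 1793, 1739 and 1545 FPKM in PEM-CKO and at 1598, 1269 and 1098 FPKM in PEM-Control. Here PEM-CKO 3 lay below PEM-Control 1 and the remaining knockout libraries lay above all controls (log2 fold change 0.37, SE 0.17, limma, adjusted p = 0.203). B2m, the light chain that every class I heavy chain needs, was at 4102, 3806 and 3424 FPKM in PEM-CKO and at 4219, 2819 and 2402 FPKM in PEM-Control, with PEM-Control 1 the highest of all 6 (log2 fold change 0.30, SE 0.22, limma, adjusted p = 0.401). Without PEM-Control 3 the log2 fold changes were 0.25 for H2-D1 and 0.13 for B2m. Without PEM-Control 1 they were 0.52 and 0.53. H2-K1 was 36.9%, 34.3% and 36.7% of H2-D1 in PEM-CKO and 50.3%, 50.2% and 36.5% in PEM-Control. The heavy chains kept nearly the same proportion in the 3 knockout libraries and in PEM-Control 3, with a higher share of H2-K1 in PEM-Control 1 and 2. B2m over the sum of both heavy chains stayed between 1.48 and 1.76 in all 6 libraries. H2-K1, H2-D1 and other class I genes are close copies in coding sequence, so the split of reads between them is uncertain.

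The transporter and tapasin genes had positive fold changes and did not pass the test. Tap1 was at 164, 163 and 129 FPKM in PEM-CKO 1, 2 and 3 and at 126, 91.6 and 47.7 FPKM in PEM-Control 1, 2 and 3. All knockout libraries lay above all controls, with a small gap between PEM-CKO 3 and PEM-Control 1 (log2 fold change 0.88, SE 0.33, 95% interval 0.10 to 1.65, limma, adjusted p = 0.143). Tap2, the other subunit of the transporter, was at 76.0, 74.0 and 58.1 FPKM in PEM-CKO and at 58.6, 47.4 and 32.9 FPKM in PEM-Control, where only PEM-Control 1 reached the knockout range (log2 fold change 0.60, SE 0.23, limma, adjusted p = 0.141). Tapbp was at 451, 431 and 369 FPKM in PEM-CKO and at 359, 307 and 272 FPKM in PEM-Control. These groups did not overlap either, again by a small gap (log2 fold change 0.42, SE 0.15, 95% interval 0.06 to 0.78, limma, adjusted p = 0.134). Per unit of length, Tap1 exceeded Tap2 by 2.16, 2.20 and 2.23 times in PEM-CKO and by 2.15, 1.93 and 1.45 times in PEM-Control, the lowest ratio being that of PEM-Control 3. Without PEM-Control 3 the log2 fold changes were 0.49 for Tap1, 0.38 for Tap2 and 0.32 for Tapbp.

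**Figure D3:**
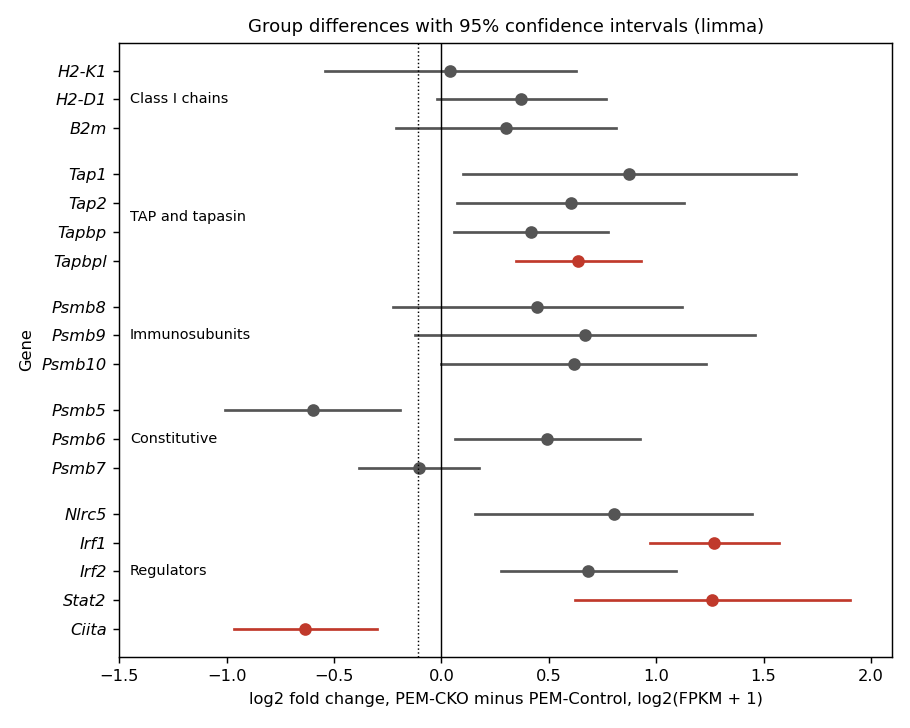
Log2 fold change of FPKM + 1, PEM-CKO minus PEM-Control, with its 95% interval (limma, 3 libraries a group) for the members and for related genes, in red where the adjusted p was under 0.05, with a dotted line at the median of all tested genes (-0.11). All 10 members lie above 0 and are grey, while Tapbpl, Irf1 and Stat2 (higher) and Ciita (lower) are red.

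The immunosubunits, which give the immunoproteasome its altered cutting, were each higher in PEM-CKO on average and widely spread among the controls. Psmb8 was at 172, 148 and 137 FPKM in PEM-CKO 1, 2 and 3 and at 152, 130 and 69.1 FPKM in PEM-Control 1, 2 and 3 (log2 fold change 0.45, SE 0.29, limma, adjusted p = 0.345). Psmb9 was at 46.5, 47.4 and 39.95 FPKM in PEM-CKO and at 42.1, 32.6 and 15.2 FPKM in PEM-Control (log2 fold change 0.67, SE 0.34, limma, adjusted p = 0.244). Psmb10 was at 122, 121 and 94.4 FPKM in PEM-CKO and at 96.2, 82.3 and 48.0 FPKM in PEM-Control (log2 fold change 0.62, SE 0.26, limma, adjusted p = 0.181). In all 3 genes PEM-Control 1 lay within the knockout range and PEM-Control 3 lay far below it. Without PEM-Control 3 the log2 fold changes were 0.11 for Psmb8, 0.26 for Psmb9 and 0.32 for Psmb10. None of the constitutive counterparts passed the test: Psmb5 was at 98.1, 104 and 140.0 FPKM in PEM-CKO and 151, 188 and 177 in PEM-Control (log2 fold change -0.60, limma, adjusted p = 0.0790), Psmb6 at a log2 fold change of 0.49 (adjusted p = 0.137) and Psmb7 at -0.10 (adjusted p = 0.600). Over these 3 genes the median was -0.10.

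A ratio of an immunosubunit to the constitutive subunit it replaces does not depend on how a library is scaled. The FPKM of Psmb8 was 1.75, 1.42 and 0.976 times that of Psmb5 in PEM-CKO 1, 2 and 3, and 1.01, 0.689 and 0.391 times that of Psmb5 in PEM-Control 1, 2 and 3. On the log2 scale the means were 0.43 ± 0.43 and -0.63 ± 0.69 (SD, n = 3 each), a difference of 1.06 (two-sided exact permutation test, p = 0.2). Psmb10 was 1.12, 1.18 and 0.855 times Psmb7 in PEM-CKO and 0.898, 0.709 and 0.389 times Psmb7 in PEM-Control, a log2 difference of 0.73 (two-sided exact permutation test, p = 0.2). In both pairs PEM-CKO 3 lay just below PEM-Control 1, and the rest of the knockout libraries lay above all controls. Compared within replicate numbers 1, 2 and 3, the log2 differences were 0.80, 1.04 and 1.32 for Psmb8/Psmb5 and 0.32, 0.73 and 1.14 for Psmb10/Psmb7, all above 0 (exact sign-flip test over the 3 pairs, p = 0.25 for each, the smallest it can give). Psmb9 behaved otherwise, at 0.128, 0.135 and 0.119 times Psmb6 in PEM-CKO and 0.198, 0.148 and 0.0467 times in PEM-Control, with the controls on both sides of the knockout libraries (log2 difference 0.20, two-sided exact permutation test, p = 1). All 3 ratios leaned on PEM-Control 3: without it the log2 differences were 0.69 for Psmb8/Psmb5, 0.38 for Psmb10/Psmb7 and -0.43 for Psmb9/Psmb6, so that the last changed sign, and without PEM-Control 1 the last was 0.61. The smallest p that 3 libraries against 3 can give is 0.1, so no ratio could pass a threshold of 0.05 in this design.

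**Figure D4:**
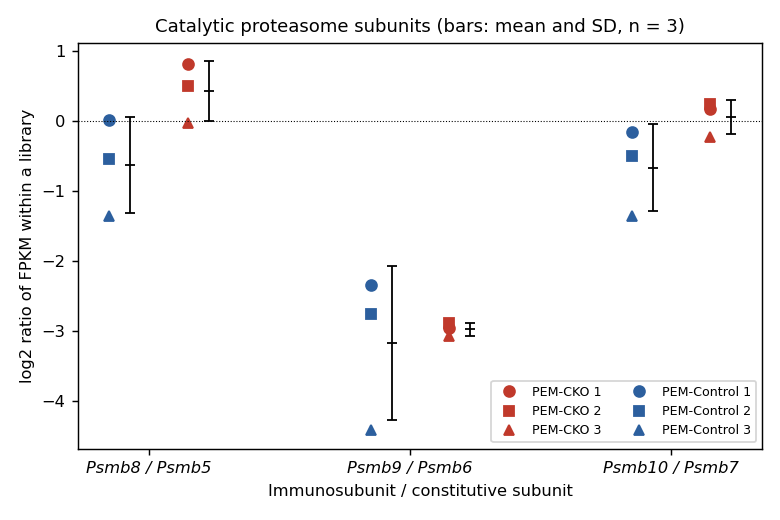
Log2 ratio of FPKM of each immunosubunit to its constitutive counterpart in each library, with the mean and SD of each group (n = 3) as bars beside the points and a dotted line where both subunits are equal. For Psmb8/Psmb5 and Psmb10/Psmb7 the knockout libraries lie mostly above the controls, and for Psmb9/Psmb6 they lie between PEM-Control 2 and PEM-Control 3.

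Across libraries the 10 genes moved together. PEM-Control 3 was the lowest of all 6 libraries for 10 of 10 members, as it was for 13.3% of all tested genes, and the order PEM-Control 1, then 2, then 3 from high to low was seen for 10 of 10 members and 15.7% of all tested genes. Within the knockout group PEM-CKO 3 was the lowest for 10 of 10 members (20.1% of all tested genes). The highest control exceeded the lowest by 1.32 to 2.77 times, depending on the member, and the highest knockout exceeded the lowest by 1.16 to 1.66 times, so the controls were the wider group for 10 of 10 members, as for 72.5% of all tested genes. PEM-CKO 3 was below PEM-Control 1 for 8 of 10 (41.0% of all tested genes). The summed B cell markers had the same order of controls (115, 78.9 and 27.5 FPKM in PEM-Control 1, 2 and 3), as had Timd4 and the summed large peritoneal macrophage markers, and the part of any of these in the order of the class I genes was not tested.

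**Figure D5:**
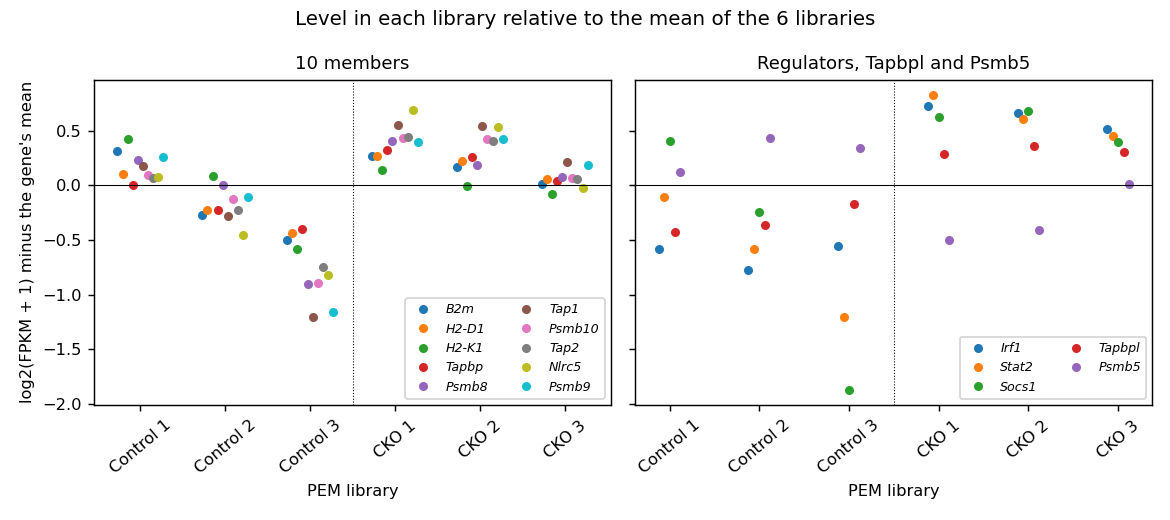
Log2(FPKM + 1) of each gene in each library minus the mean of that gene over the 6 libraries, for the 10 members (left) and for 3 interferon pathway genes, Tapbpl and Psmb5 (right), with points set slightly apart by gene. The members are low together in PEM-Control 3, as is Socs1, whereas Irf1, Tapbpl and Stat2 are low in all 3 controls, with Stat2 lowest in PEM-Control 3.

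Beyond the members, 8 of 60 tested genes of the related lists passed the test (13.3%, against 7.31% of all tested genes). Among 6 genes of peptide loading and trimming (median log2 fold change 0.15), Tapbpl rose in PEM-CKO and none fell. Tapbpl, the tapasin relative TAPBPR that edits the peptides of class I molecules, was at 17.8, 18.7 and 17.97 FPKM in PEM-CKO 1, 2 and 3 and at 10.5, 10.9 and 12.7 FPKM in PEM-Control 1, 2 and 3. The groups lay apart, with little spread in either (log2 fold change 0.64, SE 0.12, limma, adjusted p = 0.0297). The chaperones of the loading complex did not pass: Calr was at a log2 fold change of 0.05 (adjusted p = 0.815), Pdia3 at -0.38 (adjusted p = 0.142) and Canx at -0.32 (adjusted p = 0.177), and the trimming peptidase Erap1 at 0.24 (adjusted p = 0.408). Of 5 proteasome activators and assembly factors (median -0.03) none passed. The interferon-induced activator subunits Psme1 and Psme2 had log2 fold changes of 0.39 (adjusted p = 0.221) and 0.14 (adjusted p = 0.588), the assembly factor Pomp one of -0.23 (adjusted p = 0.273) and Psme3 one of -0.44 (adjusted p = 0.0693).

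Other class I heavy chains were mixed. Of 21 named genes 14 were listed and 12 were tested, and 0 passed (limma, median log2 fold change 0.29, 8 above and 4 below 0). The most abundant was H2-T23, the gene of Qa-1, a ligand of NK cell receptors, at 251, 252 and 212 FPKM in PEM-CKO 1, 2 and 3 and at 199, 177 and 121 FPKM in PEM-Control 1, 2 and 3. Its groups did not overlap, and it did not pass after adjustment (log2 fold change 0.55, SE 0.20, limma, adjusted p = 0.138). H2-Q4 (0.26, adjusted p = 0.563), H2-T22 (0.32, adjusted p = 0.708) and H2-T24 (0.97, adjusted p = 0.181) had positive log2 fold changes as well. H2-Q7, one of the Qa-2 genes, was below 0 on that scale, at 1.75, 1.53 and 1.32 FPKM in PEM-CKO and 7.65, 4.55 and 2.21 FPKM in PEM-Control (log2 fold change -1.09, limma, adjusted p = 0.0886), and with the replicate block it passed (adjusted p = 0.0442). It was named after its values were seen. H2-M3, which has the promoter spacing of H2-K1, H2-D1 and B2m, was at 15.5, 15.4 and 14.6 FPKM in PEM-CKO and 12.8, 12.4 and 7.94 FPKM in PEM-Control (log2 fold change 0.45, limma, adjusted p = 0.171).

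Of the 8 genes of NF-Y, RFX and CREB/ATF factors that sit on class I promoters 0 passed (limma), and the class II transactivator Ciita, listed with them, fell (median log2 fold change of all 9 genes -0.26). This relative of Nlrc5 that drives class II genes was at 0.601, 0.373 and 0.487 FPKM in PEM-CKO 1, 2 and 3 and at 1.03, 1.28 and 1.63 FPKM in PEM-Control 1, 2 and 3, so that it was low in every library and lower in all knockouts (log2 fold change -0.63, SE 0.14, limma, adjusted p = 0.0425). With the replicate block it did not pass (limma, adjusted p = 0.0557), nor with no filter on low values (0.0538). The most abundant partners were Nfya (log2 fold change 0.00, adjusted p = 0.999), Atf1 (-0.59, adjusted p = 0.264), Nfyb (-0.18, adjusted p = 0.408) and Creb1 (-0.31, adjusted p = 0.271).

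In interferon signalling, 2 genes rose in PEM-CKO and none fell, of 15 tested among 17 named (median log2 fold change 0.31), where 2.57% of all tested genes rose. Irf1, an interferon-induced transcription factor that acts on class I, Tap1 and Psmb9 promoters, was at 187, 180 and 162 FPKM in PEM-CKO 1, 2 and 3 and at 75.3, 65.6 and 76.7 FPKM in PEM-Control 1, 2 and 3. Every knockout library was more than any control, and PEM-Control 3 was not the low one here (log2 fold change 1.27, SE 0.13, limma, adjusted p = 0.00651). Stat2, a part of the factor that type I interferon activates, was at 98.8, 84.6 and 75.6 FPKM in PEM-CKO and at 51.2, 36.5 and 23.3 FPKM in PEM-Control (log2 fold change 1.26, SE 0.27, limma, adjusted p = 0.0384), which did not pass with no filter on low values (0.0695), after rescaling (0.0521) or with voom (0.0562). The groups of Stat2 lay apart while it also kept the order of libraries seen for the members. Socs3, a feedback inhibitor of cytokine signalling, was at 326, 324 and 163 FPKM in PEM-CKO and 178, 122 and 45.2 FPKM in PEM-Control (log2 fold change 1.37, SE 0.51, limma, adjusted p = 0.139, and 0.0219 with the replicate block). For Irf2, named after its values were seen like Socs1, the log2 fold change was 0.68 (limma, adjusted p = 0.0571, and 0.0372 with the block), and Socs1, the other feedback inhibitor, was at 19.7 to 24.3 FPKM in PEM-CKO and 3.30 to 19.95 in PEM-Control (log2 fold change 1.14, adjusted p = 0.207). Jak2 stood at -0.01 on that scale (adjusted p = 0.975). The interferon genes themselves were below the filter on low values, Ifnb1 at 0.587 to 1.14 FPKM in PEM-CKO and 0.197 to 0.215 in PEM-Control, and Ifng at 0.162 to 0.275 and 0.0685 to 0.796. In the fit with no filter Ifnb1 passed (log2 fold change 0.61, limma, adjusted p = 0.0464).

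Class II presentation, the pathway nearest to this one, had 9 of 10 log2 fold changes below 0, where 63.5% of all tested genes did, and its difference from class I was not tested. Of these 10 genes (median -0.72) 3 fell and 1 rose. The chaperone genes H2-DMb2 (log2 fold change -2.13, limma, adjusted p = 0.0110), H2-Ob (-1.67, adjusted p = 0.0196) and H2-Oa (-0.98, adjusted p = 0.0254, and 0.0510 with voom) fell, the last 2 of which encode a class II regulator typical of B cells. Ctss, the protease that trims the invariant chain, rose from 2324 ± 51.8 to 3476 ± 170 FPKM (SD, n = 3 each, log2 fold change 0.58, limma, adjusted p = 0.0326, and 0.0508 with the replicate block, 0.141 with no filter and 0.0741 with at least 10 reads in every library). Cd74, H2-Aa, H2-Ab1 and H2-Eb1, which encode the invariant chain and the class II chains, had log2 fold changes of -0.86, -0.73, -0.72 and -0.61 and did not pass (limma, adjusted p = 0.273, 0.299, 0.315 and 0.326). Of the 8 called genes in all lists, 0 stayed past the threshold without PEM-CKO 1 or without PEM-Control 2, and 1 gene of the lists was called without PEM-CKO 2 and 4 without PEM-CKO 3. Over the 7 fits that left out libraries, Irf1 lost its call in 2, H2-DMb2 and H2-Ob in 3, H2-Oa in 4, Tapbpl, Stat2 and Ciita in 5, and Ctss in 6.

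The genes whose pattern over the 6 libraries was most like that of Nlrc5 were searched among 5450 other tested genes with a mean of at least 5 FPKM. Likeness was the root mean square difference of log2(FPKM + 1) after each gene's own mean was taken away. Nearest were Atp10a (0.0717), Ccl4 (0.0741), Sp110 (0.0827), Ptk2b (0.102) and Furin (0.105), a lipid flippase, a chemokine, an interferon-induced nuclear body protein, a kinase and a protease. Ccl4, for example, was at 2991, 2649 and 1756 FPKM in PEM-CKO 1, 2 and 3 and at 1775, 1312 and 1133 FPKM in PEM-Control 1, 2 and 3, with PEM-CKO 3 and PEM-Control 1 close together as in Nlrc5. None of the 5 passed (limma, adjusted p 0.0753 to 0.105), and with the replicate block all 5 did, like Nlrc5 (0.0250 to 0.0375). They were chosen for nearly the same values as Nlrc5 in the same libraries, so a like outcome in both fits follows from the choice. Among 5459 genes ranked with the members included, Tap2 was the nearest member (rank 26, difference 0.156), followed by Psmb10 (rank 58, 0.184) and Tap1 (rank 91, 0.211), and H2-K1 was the farthest (rank 643, 0.423). Libraries share their depth and cell mixture across all genes, so this likeness is a description.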

How the data were processed

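RNA-seq of PEMs was analysed in 3 PEM-CKO and 3 PEM-Control libraries, grouped by their titles. The authors deposited FPKM per gene and library, made from reads counted per gene, and a signal column per group, which is their mean count after DESeq2 scaling. The submitters' processing notes name the build mm9, and the aligner, counter and annotation are not given in the sources used here. The fold changes, p-values and q-values the authors deposited from their own comparison were not used. Whole reads were recovered from FPKM and the signal columns for 100% of values (tolerance 0.1), giving 36170767 to 42217558 reads per library. These reads cover counting error only.

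The test was limma 3.58.1 in R 4.3.3 (functions lmFit and eBayes, trend on), applied to log2(FPKM + 1) of genes with a mean of at least 1 FPKM in a group, with Benjamini-Hochberg adjustment over all 9030 genes and a threshold of 0.05. Every adjusted p comes from this tool, and fold changes on this scale are too small for genes of low level. The fit was tested on simulated data. Ratios within a library were compared by two-sided exact permutation tests. The alternatives were no filter, at least 10 reads in every library, a pseudocount of 0.1, rescaling by the median of ratios, voom on recovered reads, the replicate block, each library left out, and PEM-CKO 2 and PEM-Control 3 left out together.

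The members and the lists were chosen with earlier results of these data known. Named in the text were all members, in each list the genes past the threshold and otherwise the 4 most abundant, and the 5 genes nearest to Nlrc5. The values of 1 gene of the interferon list are not reported here. A planned comparison of protein sequences was not made. Promoters are from RefSeq (GRCm38.p6). Deviations of libraries sharing a replicate number had correlations of 0.109, 0.109 and 0.304 for the 3 numbers. For libraries of other numbers they ran from -0.332 to 0.291. PEM-CKO 2 with PEM-Control 1 (0.291) exceeded the same-number values of 0.109. This check therefore does not settle whether the numbers pair the libraries.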

Additional observations from a re-analysis of the deposited data

How the results depend on the processing

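Of the 10 members, 0 passed the threshold in the limma fit reported and in every alternative except the replicate block, under which 1 of 10 passed (Nlrc5). The block left the log2 fold changes as they were. Beside Nlrc5 it changed the calls of H2-Q7, Irf2, Socs3, Ciita and Ctss in the pathway lists. Among the cell type markers it changed those of Kit, Retnlg, Col1a1 and Col1a2. It also changed the calls of Timd4 itself and of the 5 genes nearest to Nlrc5, which were chosen for their likeness to it. No other call by adjusted p in the report changed with it. When single libraries were left out, the number of list genes past the threshold ranged from 0 to 12. The log2 fold change of H2-K1 ranged from -0.24 to 0.27 over these fits, was below 0 without PEM-CKO 1 (-0.02) and without PEM-Control 3 (-0.24), and was -0.22 without both PEM-CKO 2 and PEM-Control 3. The log2 difference of Psmb9/Psmb6 (0.20 with all libraries) ranged from -0.43 without PEM-Control 3 to 0.61 without PEM-Control 1, and was -0.47 without both PEM-CKO 2 and PEM-Control 3. The ratio of Psmb8 to Psmb5 was 0.65 and that of Psmb10 to Psmb7 0.29 on that scale without both. The other 9 members stayed above 0 in all alternatives run, and the number of members with an unadjusted p under 0.05 (4 with all libraries) was 0 without PEM-CKO 1, without PEM-CKO 2, without PEM-Control 2 and without both PEM-CKO 2 and PEM-Control 3, 1 without PEM-Control 3, 5 without PEM-CKO 3, 5 with at least 10 reads in every library, 7 with the replicate block and 9 without PEM-Control 1. The causes were not tested. Over all tested genes, 232 of 660 called genes were higher in PEM-CKO, and after rescaling by the median of ratios 343 of 669 were. Called genes numbered from 8 without PEM-Control 2 to 1333 without PEM-Control 3. Irf1 passed in every fit except those without PEM-CKO 1 or without PEM-Control 2, while Stat2 did not pass with no filter, after rescaling, with voom or in 5 of the 7 fits that left out libraries. Each member had at least 610 reads in every library, and with 3 libraries a group the ratios cannot reach a p below 0.1.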
